A study of Homo sapiens with 4 samples.

Results

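PC3 is a human prostate cancer cell line. Its long noncoding RNAs with systematic LINC symbols were described here across 4 conditions: PC3 cells given DMSO (Ctrl), PC3 cells given the NEDDylation inhibitor MLN4924 (MLN), PC3-shp14ARF cells given DMSO (shARF) and PC3-shp14ARF cells given MLN4924 (Both). PC3-shp14ARF cells stably carry an shRNA against p14ARF, delivered by retrovirus under hygromycin selection, and no control shRNA was named for the PC3 cells. MLN4924 was used at 1 µM, and treatment with it or with DMSO lasted 3 days. Each condition had 3 RNA-seq libraries. Whether these came from separate cultures was not stated, so p-values measure only the spread between libraries, which may be technical.

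Members were chosen by their symbol and their mean level: the rows of the deposited table whose symbol is LINC followed only by digits, LINC00261 left out, averaging at least 1 TPM (transcripts scaled by length and to the same total in each library) over the 12 libraries. This gave 222 members of 1854 such rows, in a table of 43622 genes. The mean used to choose them takes in all 4 conditions, so a gene could pass through the condition in which it was high. Of the rows left out, 834 were at 0 in every library. Just inside the limit were LINC00678 (1.03 TPM), LINC00887 (1.05 TPM) and LINC01012 (1.11 TPM), and just outside it were LINC00313 (0.985 TPM), LINC02509 (0.975 TPM) and LINC02293 (0.965 TPM).

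A LINC symbol is a placeholder for a long RNA with no recognised protein product. Such RNAs are transcribed by RNA polymerase II, spliced and polyadenylated like mRNAs, and are typically less abundant and more restricted to certain cell types than mRNAs. Some act at the locus that makes them, for example through the act of transcription at a neighbouring promoter, and others act elsewhere in the cell through proteins or microRNAs they bind. MLN4924 inhibits the NEDD8-activating enzyme, which switches on cullin-RING ubiquitin ligases, so substrates of these ligases, among them the antioxidant transcription factor NRF2, the replication licensing factor CDT1 and the NF-kB inhibitor IkB, are normally stabilised by it. p14ARF, one product of CDKN2A, restrains MDM2 and also has functions that do not need p53, which PC3 cells lack.

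The promoters of 4 members are shown because their RNAs mark the patterns described further on and because their RefSeq start lies within 50 bases of the start in GENCODE release 44. LINC01186 and LINC02407 were near 0 without MLN4924, LINC02015 was high in Ctrl only, and LINC01629 was high in Both only. Each sequence runs 5′ to 3′ on the gene's strand from 250 bases before to 50 bases after the RefSeq start (GRCh38.p14), and capitals mark matches, on either strand, to the motifs searched. In LINC01186 (chrX:46327625-46327924, minus strand) the capitals are the core of an antioxidant response element, the site at which NRF2 binds. LINC02407 (chr12:76259633-76259932, plus strand) and LINC02015 (chr3:177816615-177816914, plus strand) held no match. In LINC01629 (chr14:76959388-76959687, plus strand) the capitals are, in order, an AP-1 site, an NF-kB site, a second AP-1 site and an antioxidant response core.
LINC01186: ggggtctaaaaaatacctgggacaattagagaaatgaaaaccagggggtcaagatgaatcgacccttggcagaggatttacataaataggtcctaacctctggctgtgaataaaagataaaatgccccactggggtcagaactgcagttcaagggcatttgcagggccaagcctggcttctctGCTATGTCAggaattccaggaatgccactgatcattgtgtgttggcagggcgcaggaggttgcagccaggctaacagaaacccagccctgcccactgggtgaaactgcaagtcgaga
LINC02407: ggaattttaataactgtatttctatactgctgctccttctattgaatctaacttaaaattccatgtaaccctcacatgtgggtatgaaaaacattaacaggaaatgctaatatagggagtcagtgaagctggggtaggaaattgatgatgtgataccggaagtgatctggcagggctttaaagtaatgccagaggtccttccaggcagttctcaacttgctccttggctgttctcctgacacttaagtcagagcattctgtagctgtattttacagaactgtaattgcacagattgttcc
LINC02015: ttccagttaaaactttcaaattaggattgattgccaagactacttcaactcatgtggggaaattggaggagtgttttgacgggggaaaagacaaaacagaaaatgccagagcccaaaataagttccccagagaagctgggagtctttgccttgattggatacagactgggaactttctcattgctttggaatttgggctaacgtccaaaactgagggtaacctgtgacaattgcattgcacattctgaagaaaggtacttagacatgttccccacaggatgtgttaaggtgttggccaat
LINC01629: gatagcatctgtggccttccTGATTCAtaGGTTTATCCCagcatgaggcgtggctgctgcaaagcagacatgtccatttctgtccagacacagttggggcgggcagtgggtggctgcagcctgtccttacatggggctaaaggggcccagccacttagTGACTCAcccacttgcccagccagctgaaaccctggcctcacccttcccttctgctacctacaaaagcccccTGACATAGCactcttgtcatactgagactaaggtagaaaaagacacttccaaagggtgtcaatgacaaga

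Promoter sequences were found for 158 of the 222 members. A set of 5 motifs was searched on both strands. The AP-1 site (TGANTCA) lay in 15.2% of member promoters, 14.2% of the 1073 promoters of other LINC genes and 7.76% of all 27305 promoters of that length. The antioxidant response core (TGACNNNGC) lay in 13.9%, 14.6% and 13.6%. For the E-box (CACGTG) the shares were 10.8%, 4.66% and 7.43%, for the NF-kB site 27.2%, 13.8% and 25.1%, and for the E2F site (TTTCCCGC or TTTGGCGC) 3.16%, 0.932% and 2.31%. Member promoters thus held the AP-1 letters about as often as other LINC promoters and the NF-kB letters about as often as promoters at large. A match is a string of letters and not a bound site.

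All 12 libraries sum to 1000000 TPM, and read depth is not recorded in the table. CDKN2A, the gene targeted by the shRNA, had 183 ± 6.49 TPM in Ctrl against 59.3 ± 1.47 in shARF, and 118 ± 16.4 in MLN against 47.5 ± 6.40 in Both (SD, n = 3 libraries). This value sums all CDKN2A transcripts, p16INK4a included. The prostate luminal marker KLK3, which PC3 cells are known to lack, was at 0 in every library. A list of 5 epithelial markers summed to 907 to 1004 TPM in Ctrl and 1138 to 1280 in shARF against 439 to 504 in MLN and 433 to 450 in Both, and a blood cell list to at most 3.27 TPM. A fibroblast list summed to 54.4 to 65.0 TPM in shARF, 21.6 to 24.7 in Ctrl, 21.1 to 23.5 in MLN and 10.4 to 11.4 in Both, with COL1A2 at a mean of 54.5 TPM in shARF and 6.73 TPM in Ctrl while COL1A1 (4.04 and 7.27 TPM) and PDGFRA (1.29 and 8.66 TPM) were lower in shARF. An endothelial list summed to 11.0 to 12.6 TPM in Ctrl and at most 1.97 TPM elsewhere, nearly all of it PECAM1, with VWF and CDH5 at or near 0. These lists moved with the conditions, and their part in the member results was not tested.

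Of the 222 members, 218 were located in GENCODE release 44, 192 by their symbol and 26 through a newer name that RefSeq lists beside it. GENCODE calls 215 of them lncRNA genes. The other 3 are annotated as protein coding: LINC00116 is now MTLN, which encodes a small mitochondrial membrane protein, LINC02581 is RNF227 and LINC00843 is a readthrough transcript, TIMM23B-AGAP6. A typical member was small, with a median of 3 exons and 1330 bases in its canonical transcript. Despite the name, 35 members overlapped a protein-coding gene, 11 on its strand and 24 on the other, and a further 20 lay head to head with one, their starts within 5000 bases. The remaining 163 are called apart here, which means only that they neither overlapped a coding gene nor lay head to head with one. Their median distance to a coding gene was 34292 bases, and 44 of these were over 100000 bases away. Some were close, such as LINC02542 at 595 bases from IBTK on the same strand. Strand use in the authors' counting was not stated, so reads in exons shared by overlapping genes cannot be told apart.

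Members were less abundant than most expressed genes, with a median of 3.91 TPM against 17.9 TPM for the 14663 genes of any kind that average 1 TPM or more. Only 52 members reached 10 TPM and 2 reached 100 TPM. Abundance was concentrated, since the 10 highest members held 36.3% of the summed mean. The summed TPM of the members was 1675 ± 20.3 in Ctrl and 1473 ± 9.87 in shARF against 2708 ± 105 in MLN and 2787 ± 129 in Both (SD, n = 3), so the libraries given MLN4924 stood above those given DMSO without overlap. In bulk RNA, more cells making an RNA and more RNA per cell cannot be told apart. LINC00973 made up part of this. Without it the mean sums were 1635 and 1438 TPM under DMSO and 2367 and 2373 TPM under MLN4924.

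LINC00973 was the most abundant member. In Ctrl its 3 libraries had 33.8, 45.2 and 40.7 TPM and in MLN 376, 334 and 313 TPM. With the shRNA it had 31.7, 38.0 and 35.1 TPM under DMSO (shARF) and 408, 440 and 392 TPM under MLN4924 (Both). The increase was 3.10 ± 0.12 on the log2(TPM + 0.1) scale in PC3 cells (SE; limma adjusted p = 1.14e-05) and 3.56 ± 0.08 in PC3-shp14ARF cells (adjusted p = 1.82e-06). The gene lies at chr3:98981058-98983096 on the plus strand, 79363 bases from DCBLD2 and apart from any coding gene.

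Other members among the 10 highest also rose with MLN4924 in both cell lines. LINC01133, an RNA studied in several epithelial cancers, had 62.7, 67.8 and 62.3 TPM in Ctrl, 144, 140 and 122 in MLN, 78.3, 72.4 and 66.1 in shARF and 162, 188 and 177 in Both. Its rise was 1.07 ± 0.08 in PC3 cells (adjusted p = 7.66e-05) and 1.28 ± 0.08 in PC3-shp14ARF cells (adjusted p = 5.53e-05). LINC01468, now named LNCAROD, rose by 1.32 ± 0.08 (adjusted p = 3.74e-05) and 1.11 ± 0.10 (adjusted p = 0.000244). LINC02001, now SNHG30, a host gene of small nucleolar RNAs, rose by 1.56 ± 0.13 (adjusted p = 0.000139) and 1.53 ± 0.05 (adjusted p = 4.33e-06), with 18.6, 23.2 and 18.4 TPM in Ctrl, 68.0, 53.3 and 56.5 in MLN, 29.0, 31.2 and 30.6 in shARF and 91.2, 86.7 and 84.6 in Both. None of these 3 had an interaction that was called (adjusted p = 0.206, 0.277 and 0.903).

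LINC01116 and LINC01351 went the other way. LINC01116, 273412 bases from its nearest coding gene, MTX2, had 84.1, 83.6 and 93.0 TPM in Ctrl, 32.4, 29.9 and 30.1 in MLN, 59.4, 60.0 and 58.1 in shARF and 20.5, 17.9 and 20.7 in Both, and no 2 conditions overlapped. It fell in all 4 pairwise comparisons, by 1.49 ± 0.06 with MLN4924 in PC3 cells (adjusted p = 1.22e-05) and by 0.55 ± 0.05 with the shRNA under DMSO (adjusted p = 0.000872). LINC01117, which overlaps it on the other strand at a lower level (6.71, 7.06 and 7.61 TPM in Ctrl), fell by 1.40 ± 0.09 in MLN against Ctrl (adjusted p = 5.74e-05). LINC01351, which starts 147 bases from BRINP3 and is now called BRINP3-DT, fell by 0.92 ± 0.11 in PC3 cells (adjusted p = 0.000612) and by 0.63 ± 0.13 in PC3-shp14ARF cells (adjusted p = 0.00665).

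**Figure D1:**
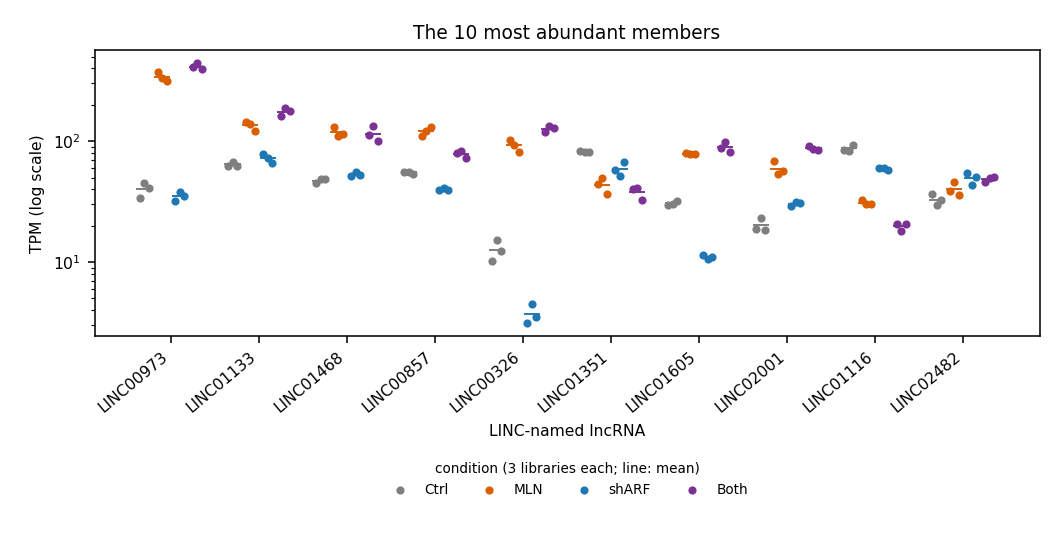
TPM (log scale) of the 10 members with the highest mean, 1 point per library, with 3 libraries in each of the 4 conditions and lines at the means. LINC00973 rose from 31.7 to 45.2 TPM in the DMSO libraries to 313 to 440 TPM in the MLN4924 libraries, while LINC01116 and LINC01351 fell, and LINC00326 and LINC01605 were lowest in shARF.

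Members were then compared between conditions, each change being called at a limma adjusted p below 0.05 over the 19932 genes tested. With MLN4924, more members rose than fell in either cell line. In PC3 cells 103 members (46.4%) were higher in MLN than in Ctrl and 59 (26.6%) were lower, against 32.2% higher and 29.4% lower of all genes tested and 36.2% and 35.5% of the genes averaging 1 TPM or more. In PC3-shp14ARF cells 103 members (46.4%) were higher in Both than in shARF and 52 (23.4%) were lower, against 28.3% and 32.8% of all genes tested and 32.3% and 39.2% of those with at least 1 TPM. The median log2 change over the members was 0.47 without and 0.43 with the shRNA, and over all genes tested it was 0.05 and -0.04. Over the 535 LINC rows that were tested, members included, 36.3% were called higher and 17.9% lower in MLN against Ctrl.

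Changes beyond 1 on the log2 scale showed the same leaning. Here and below, such changes and the calls shared by both responses are set beside genes averaging 0.1 TPM or more. Members had to reach 1 TPM on a mean that takes in the MLN4924 libraries, so the leaning may follow in part from that limit. In MLN against Ctrl 79 members (35.6%) rose and 34 (15.3%) fell by that much, beside 15.6% and 12.4% of all genes tested, and in Both against shARF 82 (36.9%) rose and 29 (13.1%) fell, beside 13.0% and 13.4%. The 2 responses rest on separate libraries. In each of them the same 87 members (39.2%) were called higher and the same 44 (19.8%) lower, beside 22.0% and 22.8% of all genes tested. A further 2 members were called higher in PC3 and lower in PC3-shp14ARF cells, none the reverse, and 38 were called in neither. No share over all genes tested was taken for these further counts.

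Under DMSO, members leaned towards lower levels in PC3-shp14ARF than in PC3 cells. No control shRNA was named, so the part of p14ARF itself in this difference was not tested. With replicate numbers added to the fit no member was called here (smallest limma adjusted p = 0.0607), though that fit had few degrees of freedom left. In shARF 26 members (11.7%) were higher than in Ctrl and 64 (28.8%) were lower, against 21.0% and 20.4% of all genes tested and 26.1% and 24.2% of those with at least 1 TPM. The members' median was -0.24 and that of all genes tested 0. Beyond 1 on the log2 scale 9 members (4.05%) rose and 31 (14.0%) fell, beside 3.87% and 6.60% of all genes tested. Under MLN4924 the difference was smaller in number: 37 members (16.7%) were higher in Both than in MLN and 45 (20.3%) lower, against 11.8% and 20.6% of all genes tested and 14.3% and 24.0% of those with at least 1 TPM. Beyond 1 on the log2 scale 11 members (4.95%) rose and 23 (10.4%) fell, beside 2.18% and 6.84% of all genes tested. There the median of -0.02 turned to 0.06 when the libraries were scaled by median of ratios, so no direction is given.

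**Figure D2:**
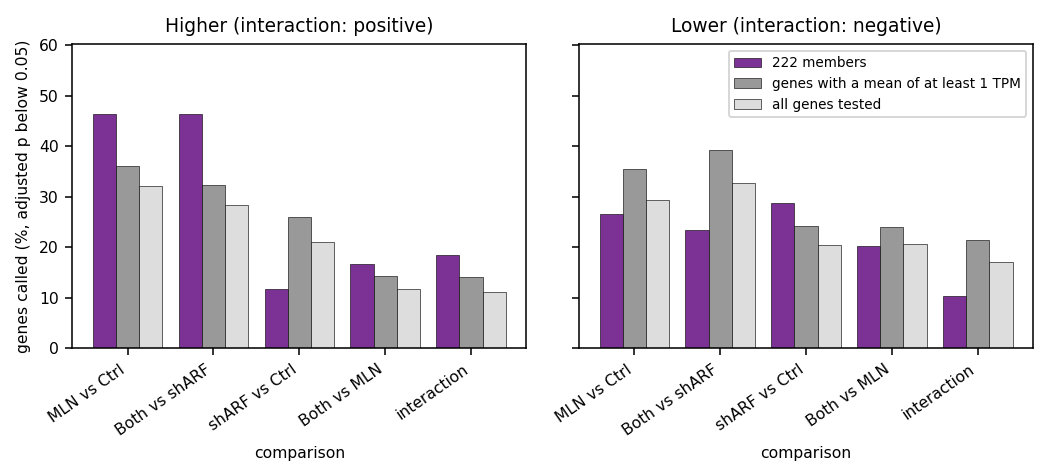
Share of genes called (%, adjusted p below 0.05) in each comparison, for the 222 members, for genes averaging 1 TPM or more and for all genes tested, higher on the left and lower on the right. With MLN4924, 46.4% of members were higher in either cell line against 32.2% and 28.3% of all genes tested, and in shARF against Ctrl 11.7% were higher and 28.8% lower.

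By condition, 72 members had their highest mean in Both, 61 in MLN, 52 in Ctrl and 37 in shARF, and 90 had their lowest mean in shARF. All 4 conditions were at or above 1 TPM for 144 members. Below 1 TPM were 47 members in Ctrl, 59 in shARF, 10 in MLN and 18 in Both. These counts follow in part from the limit on the mean, which the members with 1 or 2 high conditions passed through those.

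A group of members was near or at 0 in the DMSO libraries and clearly measured with MLN4924. They passed the limit on the mean through the MLN4924 libraries, so their rises use the values that made them members. LINC01564 had 0.276, 0.529 and 0 TPM in Ctrl and 52.7, 49.7 and 49.8 TPM in MLN. The shARF libraries had 0.556, 0.275 and 0.561 TPM and the Both libraries 55.8, 64.1 and 48.5 TPM. The rise was 7.47 ± 0.65 in PC3 cells (adjusted p = 0.000172) and 6.68 ± 0.25 in PC3-shp14ARF cells (adjusted p = 8.73e-06), values that depend on the pseudocount because the DMSO libraries are so low. LINC01564 (chr6:53616471-53707024, plus strand) overlaps GCLC, which lies on the minus strand and encodes the catalytic subunit of the first enzyme of glutathione synthesis, but their annotated exons share no base. GCLC itself rose from 24.4 ± 0.247 to 49.4 ± 0.848 TPM in PC3 cells (SD, n = 3; adjusted p = 1.05e-05) and from 26.2 ± 1.57 to 38.9 ± 2.26 TPM in PC3-shp14ARF cells (adjusted p = 0.000555). With MLN4924 the lncRNA libraries thus lay at or above the mean level of GCLC.

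LINC01186, whose promoter with an antioxidant response core is printed above, had 0.250, 0 and 0.728 TPM in Ctrl and 34.2, 24.0 and 25.3 TPM in MLN. It was at 0 in the 3 shARF libraries and had 34.9, 23.8 and 30.6 TPM in Both. The change was called in either cell line (adjusted p = 0.000525 and 1.67e-06). LINC02407, without such a match and now named LNCOG, behaved likewise, with 0.781, 0.498 and 0.379 TPM in Ctrl and 10.8, 13.5 and 14.2 TPM in MLN. In shARF it had 0, 0.129 and 0 TPM and in Both 14.3, 16.6 and 10.9 TPM.

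LINC02428, LINC02232 and LINC02059 were listed at 0 in all 6 DMSO libraries, so no fold is given. LINC02428 had 10.9, 8.14 and 7.35 TPM in MLN and 11.2, 15.3 and 16.1 TPM in Both. LINC02232 had 2.13, 1.88 and 1.89 TPM in MLN and 7.53, 8.19 and 7.16 TPM in Both, and LINC02059 had 1.27, 0.790 and 1.37 TPM in MLN and 3.15, 4.50 and 3.49 TPM in Both. In each of these 3 the Both libraries lay above the MLN libraries (adjusted p = 0.0437, 0.000395 and 0.00555). LINC02232 and LINC02059 passed the limit on the mean only through their Both libraries, so their calls here use the values that made them members. LINC01151, LINC00536 and LINC01914 belonged to the same group. LINC00536, 140838 bases from TRPS1 on chromosome 8, had 0.0580, 0.0556 and 0.0564 TPM in Ctrl, 7.07, 7.26 and 6.11 in MLN, 0 in the shARF libraries and 8.51, 9.42 and 8.36 in Both. LINC01151 had 11.4, 7.64 and 8.45 TPM in MLN and 9.18, 8.51 and 9.98 TPM in Both, and LINC01914 had 3.45, 4.69 and 3.86 TPM in MLN and 8.50, 6.09 and 9.43 TPM in Both, each with a single Ctrl library above 0.

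**Figure D3:**
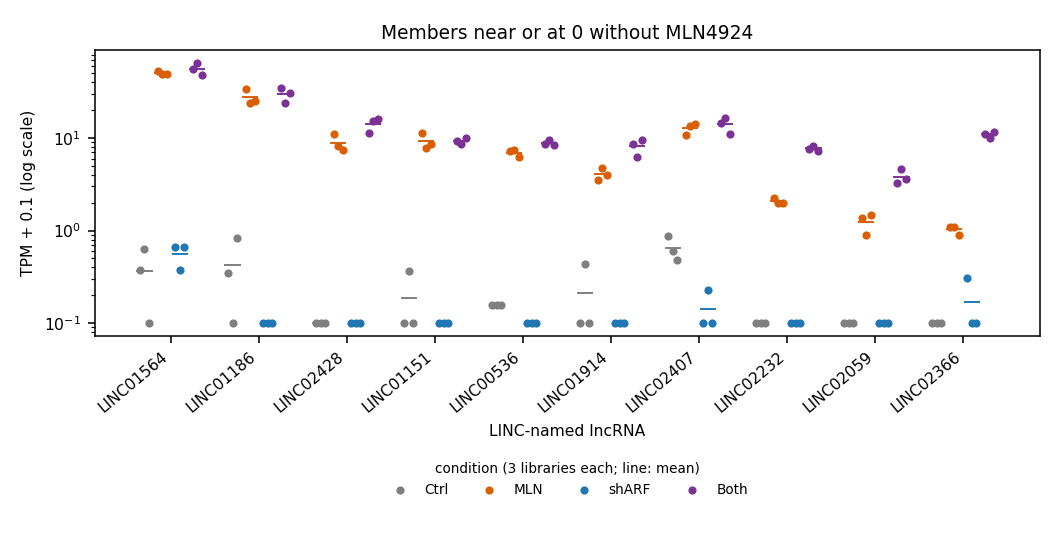
TPM + 0.1 (log scale) of 10 members that were near or at 0 in the DMSO libraries, 1 point per library and lines at the means, so that 0 TPM is drawn at 0.1. The MLN and Both libraries lay above every Ctrl and shARF library for each of the 10, and LINC02232, LINC02059 and LINC02366 were higher in Both than in MLN.

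The largest falls with MLN4924 were those of LINC02015 in PC3 cells (by 5.09) and LINC02489 in PC3-shp14ARF cells (by 5.05), both described further on. LINC00342 was among the next largest in each. LINC00342 had 12.8, 12.5 and 12.9 TPM in Ctrl and 1.24, 1.09 and 0.806 TPM in MLN, a fall by 3.51 ± 0.16 on the log2 scale (adjusted p = 1.74e-05). The shARF libraries had 10.9, 6.83 and 11.3 TPM and the Both libraries 1.43, 0.870 and 0.669 TPM, a fall by 3.19 ± 0.32 (adjusted p = 0.000313). LINC00342 lies 1916 bases from ANKRD36C, a member of a gene family with near-identical copies, so its reads may be split among copies. ANKRD36C also fell in PC3 cells, from 12.6 ± 0.263 to 2.34 ± 0.305 TPM (adjusted p = 1.75e-05).

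LINC01239, LINC01521, LINC01963 and LINC02320 fell in both cell lines as well. LINC01239 went from 5.66, 5.13 and 5.80 TPM in Ctrl to 0.575, 0.351 and 0.176 TPM in MLN and from 2.27, 2.30 and 3.15 TPM in shARF to 0.525, 0.828 and 0.455 TPM in Both. It fell by 3.68 ± 0.33 (adjusted p = 0.000195) and by 1.95 ± 0.26 (adjusted p = 0.000985). LINC01963 fell by 2.34 ± 0.21 (adjusted p = 0.000175) and by 2.51 ± 0.17 (adjusted p = 7.04e-05), and LINC01521, which starts 431 bases from PATZ1, fell by 2.57 ± 0.24 (adjusted p = 0.000211) and by 2.14 ± 0.34 (adjusted p = 0.00219). LINC02320 fell by 2.32 ± 0.14 in PC3 cells (adjusted p = 4.43e-05) and by 1.58 ± 0.33 in PC3-shp14ARF cells (adjusted p = 0.00718).

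Among those with the largest falls in PC3-shp14ARF cells, LINC00920, which lies 3732 bases from the endothelial cadherin gene CDH5, had 31.9, 38.9 and 32.5 TPM in Ctrl, 7.90, 8.89 and 6.60 in MLN, 19.1, 17.6 and 17.7 in shARF and 3.07, 3.68 and 2.65 in Both. It fell in all 4 pairwise comparisons, by 2.51 ± 0.13 in Both against shARF (adjusted p = 2.16e-05). LINC01736 fell by 2.68 ± 0.31 (adjusted p = 0.000593) and LINC02182 by 2.61 ± 0.19 (adjusted p = 9.01e-05) in the same comparison. LINC02182 had 13.6, 13.1 and 10.8 TPM in shARF and 1.50, 2.44 and 2.05 TPM in Both.

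Whether the response to MLN4924 differed between the cell lines was tested by the interaction, the change in PC3-shp14ARF cells minus that in PC3 cells. It was positive for 41 members (18.5%) and negative for 23 (10.4%), against 11.2% positive and 17.1% negative of all genes tested and 14.1% and 21.4% of those with at least 1 TPM. Over the 535 LINC rows tested, members included, it was positive for 10.3% and negative for 7.1%. The limit on the mean takes in the Both libraries, so the members' leaning towards positive interactions may follow in part from that limit. The members' median was 0.16 and that of all genes tested -0.09. Beyond 1 on the log2 scale the interaction was positive for 23 members (10.4%) and negative for 12 (5.41%), beside 3.52% and 4.95% of all genes tested.

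LINC02015 had the largest interaction, 5.28 ± 0.46 (adjusted p = 8.5e-06). It was high in Ctrl only, with 39.7, 37.5 and 36.0 TPM there, 0.982, 1.85 and 0.552 TPM in MLN, 0.838, 0.879 and 0.528 TPM in shARF and 0.847, 1.06 and 0.680 TPM in Both. Either MLN4924 or the shRNA went with a fall to about the same level, by 5.09 ± 0.38 (adjusted p = 9.24e-05) and by 5.50 ± 0.19 (adjusted p = 7.1e-05). In Both against shARF the change was 0.19 ± 0.26 (adjusted p = 0.553). The gene lies at chr3:177816865-177899224 on the plus strand, 373708 bases from the nearest coding gene, KCNMB2.

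Several members were lower in shARF than in Ctrl and reached the MLN level or more in Both. LINC01235 had 5.16, 5.69 and 5.25 TPM in Ctrl, 39.2, 35.7 and 38.0 in MLN, 0.550, 0.965 and 0.431 in shARF and 42.0, 50.7 and 36.5 in Both. Its fall in shARF was by 2.93 ± 0.28 (adjusted p = 0.00119), its rise with MLN4924 was 2.79 ± 0.07 in PC3 and 5.90 ± 0.28 in PC3-shp14ARF cells, and the interaction was 3.11 ± 0.29 (adjusted p = 1.27e-05). The Both and MLN libraries overlapped. LINC00326 followed this pattern at a higher level, with 10.1, 15.1 and 12.4 TPM in Ctrl, 102, 92.7 and 81.4 in MLN, 3.13, 4.51 and 3.53 in shARF and 118, 133 and 130 in Both (interaction 2.19 ± 0.21, adjusted p = 1.93e-05). LINC01605 had 29.9, 30.2 and 31.7 TPM in Ctrl, 79.1, 77.6 and 78.6 in MLN, 11.4, 10.5 and 10.9 in shARF and 87.3, 98.0 and 80.7 in Both (interaction 1.65 ± 0.10, adjusted p = 3.75e-07).

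LINC02246, 42683 bases from the nuclear receptor corepressor gene NRIP1, overlapped between Ctrl, MLN and Both and was low in shARF alone. Its values were 6.45, 6.21 and 6.98 TPM in Ctrl, 6.50, 8.27 and 5.02 in MLN, 0.390, 0.513 and 0.699 in shARF and 5.73, 6.48 and 4.42 in Both. The fall in shARF was by 3.42 ± 0.20 (adjusted p = 0.000307) and the interaction 3.18 ± 0.30 (adjusted p = 1.61e-05). LINC02095, now ROCR, lies 62947 bases from SOX9, a transcription factor gene of prostate and cartilage, and rose with MLN4924 by 2.07 ± 0.17 in PC3 cells (adjusted p = 0.000141) and 4.66 ± 0.81 in PC3-shp14ARF cells (adjusted p = 0.0032). SOX9 went the other way, from 164 ± 12.6 to 43.7 ± 1.14 TPM in PC3 cells (adjusted p = 7.35e-06). LINC02095's interaction of 2.60 ± 0.82 (adjusted p = 0.0326) was lost in 12 of 19 alternative settings. LINC02029 was likewise lower in shARF, with 0, 0.415 and 0.318 TPM against 1.15, 1.60 and 1.01 TPM in Ctrl (adjusted p = 0.0489, lost in 9 of 14 settings), and had 5.62, 4.92 and 5.44 TPM in MLN and 2.20, 3.45 and 2.73 TPM in Both.

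LINC02489 had the largest negative interaction, -3.30 ± 0.80 (adjusted p = 0.00863). It had 1.32, 2.96 and 2.15 TPM in Ctrl, 0.834, 0.425 and 0.426 in MLN, 9.34, 14.0 and 7.17 in shARF and 0.423, 0 and 0.413 in Both. The shRNA under DMSO went with a rise of 2.21 ± 0.38 (adjusted p = 0.00787), and MLN4924 with a fall in either cell line. It lies head to head with CREB3L1, which encodes a transcription factor cleaved from the endoplasmic reticulum membrane, at 3115 bases, and CREB3L1 had the same order of levels: 132 ± 4.76 TPM in shARF, 62.3 ± 6.03 in Ctrl, 28.6 ± 5.62 in MLN and 17.0 ± 0.398 in Both.

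LINC00513 rose with the shRNA and with MLN4924, and no 2 conditions overlapped. It had 4.06, 4.81 and 4.79 TPM in Ctrl, 15.9, 18.8 and 14.9 in shARF, 35.3, 38.5 and 38.4 in MLN and 63.6, 66.0 and 55.6 in Both. The rise in shARF against Ctrl was 1.84 ± 0.12 (adjusted p = 0.000371) and that in Both against MLN 0.72 ± 0.08 (adjusted p = 0.00215). LINC02300 and LINC02170 were also higher with the shRNA under either treatment, though the call on LINC02300 in shARF against Ctrl was lost in 6 of 14 alternative settings. LINC02170 had 0.616, 0.589 and 1.26 TPM in Ctrl, 1.28, 1.18 and 1.13 in MLN, 2.48, 2.51 and 2.44 in shARF and 4.07, 4.97 and 4.49 in Both. It shares 2261 of its 6718 exonic bases with a coding gene model on the same strand. In shARF, LINC02313 and LINC01694 exceeded Ctrl by 2.89 ± 0.58 (adjusted p = 0.0138) and 2.26 ± 0.17 (adjusted p = 0.000585), both at under 3 TPM. The call on LINC02313 was lost in 3 of 14 settings, over which its size ranged from 1.20 to 4.18. LINC01843 had 1.13, 1.08 and 0.686 TPM in Ctrl and 3.70, 4.91 and 2.58 TPM in shARF, and fell back to 0.812, 0.960 and 1.58 TPM in Both (a fall by 1.66 ± 0.33 against shARF, adjusted p = 0.00555).

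LINC01629, the last promoter printed above, had 0, 0 and 1.31 TPM in Ctrl, 1.27, 1.81 and 0.779 in MLN, 0.271, 0 and 0 in shARF and 7.99, 12.3 and 7.29 in Both. Its rise in Both against MLN was 2.78 ± 0.34 (adjusted p = 0.00284) and against shARF 5.87 ± 0.57 (adjusted p = 0.000275), while its interaction of 3.42 ± 1.24 did not pass (adjusted p = 0.0582). LINC01629 passed the limit on the mean only through its Both libraries, so these comparisons use the values that made it a member. Other members were lower in Both than in MLN. LINC01322, which overlaps BCHE on the other strand without sharing exonic bases, had 13.4, 15.8 and 12.8 TPM in MLN and 3.86, 4.33 and 3.85 TPM in Both, a fall by 1.78 ± 0.11 (adjusted p = 0.000469). LINC02154 fell by 2.57 ± 0.26 (adjusted p = 0.00165) and LINC00601 by 1.67 ± 0.20 (adjusted p = 0.00254), each at under 5 TPM. LINC00525 and LINC01385 fell by 1.72 ± 0.48 (adjusted p = 0.0388) and by 1.78 ± 0.43 (adjusted p = 0.026), calls that were lost in 8 and 5 of 13 alternative settings.

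Some members were not called. Of the 222, 25 were called in none of the 4 pairwise comparisons. No share over all genes tested was taken for this count, and a change within the spread of 3 libraries may go uncalled. By the rule for the smallest range of condition means, LINC02041, LINC00476, LINC02474, LINC01278 and LINC01876 were the steadiest. LINC00476 had 3.49 to 3.83 TPM in MLN, 2.88 to 3.58 in Ctrl, 3.02 to 3.29 in shARF and 2.61 to 3.64 in Both. LINC01278, with smaller spread between libraries, was nonetheless called higher in Both than in shARF (20.7 to 23.4 against 16.5 to 18.2 TPM; 0.35 ± 0.07, adjusted p = 0.00486).

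Position relative to coding genes was set beside the calls. Of the 163 members apart from coding genes 78 were higher and 44 lower in MLN than in Ctrl, of the 20 head to head 8 were higher and 4 lower, of the 24 overlapping on the other strand 10 were higher and 8 lower, and of the 11 overlapping on the same strand 5 were higher and 1 lower. Over all genes tested 32.2% were higher and 29.4% lower. Among the 7 head-to-head members called higher in MLN whose coding neighbour was tested, the neighbour was higher in 3, lower in 2 and not called in 2. The neighbours of the 67 such members apart from coding genes were higher in 19, lower in 29 and not called in 19. Those of the 10 overlapping on the other strand were higher in 3, lower in 4 and not called in 3. Those of the 4 overlapping on the same strand were higher in all 4. Some same-strand pairs share exonic bases, as LINC01089 and RHOF do, and others share none, as LINC00294 and TCP11L1. SLAMF9, which encodes a surface receptor of the SLAM family and lies head to head with LINC01133, rose with it, from 14.2 ± 2.71 to 98.3 ± 22.5 TPM in PC3 cells (adjusted p = 7.86e-05). ANXA11, which encodes a calcium-dependent phospholipid-binding protein and lies head to head with LINC00857, fell from 160 ± 15.2 to 101 ± 12.9 TPM (adjusted p = 0.00292) while LINC00857 rose from 55.9, 55.8 and 53.8 to 110, 121 and 132 TPM (adjusted p = 5.08e-05).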

How the data were processed

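The authors deposited one table of TPM values (transcripts scaled by length and by library total), made from their reads with CLC Genomics Workbench against hg38 and an Ensembl annotation. Read counts were not used here, so depth is unknown and no counting interval is given. Its 12 columns were assigned to the 4 conditions by the names they carry. Values were tested as log2(TPM + 0.1) with limma 3.58.1 (R 4.3.3; moderated test with a mean trend, Benjamini-Hochberg adjustment over 19932 genes averaging 0.1 TPM or more). Pairwise comparisons used the 6 libraries of both conditions, and the interaction used all 12. A fold change is on the log2(TPM + 0.1) scale and understates that of low genes. The script was tested on simulated data.

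Members, lists and tests were chosen with earlier results of these data known. Members named were the 10 highest by mean, the 6 most positive and 6 most negative called changes of each comparison without overlap of libraries (the interaction without that condition), the 5 steadiest and the 3 on either side of 1 TPM. LINC01117 was added as the overlapping partner of a named member after its values were seen. Other pseudocounts, filters, scaling and fits, a replicate block and leaving out each library were tried. Positions come from GENCODE release 44 and promoters from RefSeq (GRCh38.p14). The starts in these annotations can differ.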

Additional observations from a re-analysis of the deposited data

Results flagged for a closer look

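For 12 members the change with MLN4924 in PC3-shp14ARF cells differed from that in PC3 cells by the limma interaction test (adjusted p below 0.05) with the largest sizes in either direction. A positive difference on the log2(TPM + 0.1) scale was found for LINC02015 (5.28), LINC02246 (3.18), LINC01235 (3.11), LINC02366 (2.87), LINC02095 (2.60) and LINC02407 (2.37). LINC02366 was listed at 0 in every Ctrl library, so its size depends on the pseudocount. The size for LINC02407 ran from 0.67 to 4.59 over 19 alternative settings. The calls on LINC02366 and LINC02407 were each lost in 1 of these settings and that on LINC02095 in 12.

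A negative difference was found for LINC02489 (-3.30), LINC02313 (-2.34), LINC02575 (-2.17), LINC01293 (-2.13), LINC01547 (-1.75) and LINC01693 (-1.61). The size for LINC02313 ran from -3.59 to -0.864 over 19 alternative settings, and its call was lost in 2 of them. The calls on LINC02489 and LINC01293 were each lost in 1. LINC02575 and LINC01547 changed sign between the cell lines, LINC02575 with a rise of 1.33 ± 0.32 in PC3 cells (adjusted p = 0.0128) and a fall by 0.84 ± 0.28 in PC3-shp14ARF cells (adjusted p = 0.0432), and LINC01547 with a rise of 0.47 ± 0.17 (adjusted p = 0.0495) and a fall by 1.29 ± 0.30 (adjusted p = 0.0109). LINC02575 had 1.03, 0.820 and 1.17 TPM in Ctrl, 1.62, 3.13 and 3.64 in MLN, 0.518, 0.341 and 0.522 in shARF and 0.164, 0.167 and 0.320 in Both. LINC01293 had 0.123, 0.118 and 0.240 TPM in Ctrl and 3.85, 3.09 and 4.05 TPM in MLN, against 0.373, 0.123 and 0.376 TPM in shARF and 1.06, 1.20 and 1.15 TPM in Both.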

How the results depend on the processing

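The replicate numbers in the columns share only a name: correlations of same-numbered libraries ran from -0.0457 to 0.00722. With the replicate block, 67 members were higher and 25 lower in MLN against Ctrl, 0 higher and 0 lower in shARF against Ctrl by limma (19 and 59 at an unadjusted p below 0.05), and the interaction was positive for 23 and negative for 11. The smallest limma adjusted p of a member in shARF against Ctrl was then 0.0607. In pairwise fits the block took up most degrees of freedom of the 6 libraries, so the counts of 0 do not show an absence of change. No paired analysis was possible for Both against shARF or against MLN because they share a single number. Leaving out each library in turn gave 92 to 102 members higher and 47 to 54 lower in MLN against Ctrl, 92 to 100 and 48 to 51 in Both against shARF, 17 to 23 and 48 to 59 in shARF against Ctrl, 20 to 30 and 30 to 39 in Both against MLN, and 34 to 41 positive and 20 to 25 negative interactions. The lowest counts came without shARF replicate 1 (17 higher in shARF against Ctrl) and, for higher in Both against MLN, without MLN replicate 5 (20), Both replicate 3 (22), Both replicate 4 (23) or MLN replicate 2 (23). The counts with the block and with a library left out are given without the share of all genes called in the same setting. They therefore do not set the members apart from other genes. Alternatives were run for the 60 results on members with the largest called changes, not for those named for their level or steadiness. None of the 60 reversed, 40 kept their call in every setting and 20 lost it in at least 1, 16 of them with the replicate block. The cause of these losses was not tested. Without read counts, the precision of members near 1 TPM cannot be given.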

Other observations

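Long noncoding RNAs with names of their own were counted beside the members. Of a list of 48 such RNAs 35 were tested, of which 14 were higher and 13 lower in MLN than in Ctrl and 15 higher and 11 lower in Both than in shARF, with median log2 changes of -0.01 and -0.07. Over all genes tested 32.2% were higher and 29.4% lower in MLN than in Ctrl, and 28.3% and 32.8% in Both against shARF. LUCAT1, a stress-induced RNA, rose from 2.05 ± 0.321 TPM in Ctrl to 110 ± 4.17 TPM in MLN (SD, n = 3; adjusted p = 1.7e-06) and from 1.32 ± 0.10 TPM in shARF to 235 ± 18.9 TPM in Both (adjusted p = 3.64e-07). NEAT1, the scaffold of nuclear paraspeckles, rose from 30.1 ± 2.94 to 94.9 ± 31.1 TPM in PC3 cells (adjusted p = 0.00121). MIR31HG, the host gene of miR-31, fell from 53.7 ± 2.16 to 9.04 ± 0.793 TPM (adjusted p = 5.46e-06), and DANCR from 62.1 ± 2.98 to 26.0 ± 3.28 TPM (adjusted p = 0.000108).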
